A study of Mus musculus with 6 samples.

Results

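The enzymes that write and erase histone and DNA marks were examined as a group of 74 genes in mouse liver tumors. They were chosen by symbol alone and comprise the Kdm, Hdac, Sirt, Kat, Setd, Prdm, Smyd, Dnmt and Tet families together with Ezh1, Ezh2, Ehmt1, Ehmt2, Ep300 and Crebbp. Of the 24063 genes in the count table, 85 carried such a symbol and 74 of these had at least 10 raw counts on average over the 6 libraries. The other 11 stayed below that floor. Among these, Tet1, which oxidizes 5-methylcytosine, had 2.17 counts on average, the germ cell regulator Prdm14 had 2.33, and Prdm12, Prdm13 and Dnmt3l had 0 counts in all 6 libraries. The enzymes just above the floor were Prdm16 (16.5 counts on average), Dnmt3b (25.8), Prdm1 (26.0) and Hdac9 (27.3), and Prdm11 (6.33) lay just below it.

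The tumors came from male C57BL/6 mice that had received 25 mg per kg of diethylnitrosamine (DEN), a hepatocarcinogen that hepatocytes convert to a DNA-alkylating agent, by intraperitoneal injection at 15 days of age. They were taken at the 24-week time point from wild-type mice (WT, NR2E3+/+) and from mice lacking Nr2e3 (Nr2e3-/-), an orphan nuclear receptor, and 3 tumors of each genotype were sequenced as 1 RNA-seq library each. The labels do not say that each tumor came from its own mouse or how much adjacent tissue it held, so p-values measure the spread between these tumors. Both groups had been given DEN, and no liver without DEN and no tissue beside the tumors was analysed here, so that every difference is one between tumors of the 2 genotypes. The question addressed was which of these enzymes differed in RNA level between Nr2e3-/- and WT tumors. In such bulk tissue, fewer cells of a type and less RNA per cell cannot be told apart.

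Histone acetyltransferases place acetyl groups on lysines of the histone tails, which loosens the contact with DNA and is read by bromodomain proteins at active promoters and enhancers. The zinc-dependent histone deacetylases (HDACs) and the NAD-dependent sirtuins take these groups off. Methyl groups are placed on histone lysines mostly by SET domain enzymes and are removed by flavin-dependent (Kdm1) or Jumonji C domain demethylases (the other Kdm families), and their effect depends on the lysine: methylation of H3K4 marks active promoters and enhancers, that of H3K9 and H3K27 silent chromatin. DNA methyltransferases methylate cytosine and TET dioxygenases oxidize the methyl group. Many of these enzymes use acetyl-CoA, NAD, S-adenosylmethionine or 2-oxoglutarate, metabolites that the liver turns over in large amounts.

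Total counts ranged from 15376261 to 28690279 per library, with the lowest total in Nr2e3-/- replicate 1, and the 74 enzymes received between 0.168% and 0.198% of them. Nr2e3 had 0 counts in every library, which allows at most 0.105 to 0.195 CPM (counts scaled to 1000000 in each library), by depth, so the genotype could not be checked from its own RNA. Hepatocyte RNA was abundant throughout (Alb between 84010 and 130200 CPM). Nr2e3-/- replicate 1 stood apart from its group: its log2 CPM over all genes tested had a Pearson r of 0.973 to 0.981 with the 3 WT libraries and of 0.952 and 0.972 with Nr2e3-/- replicates 2 and 3. Counts and medians by family and by gene list are therefore also given without that library. Levels are CPM after normalization by TMM (trimmed mean of M-values), differences are the log2 ratio of Nr2e3-/- to WT tumors, each with its standard error (SE), and p-values are from edgeR's quasi-likelihood test over all 13572 genes tested, unless another tool is named. All 74 enzymes passed the filter on low counts.

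The shares of enzymes called were set beside those of all genes. After Benjamini-Hochberg adjustment over all genes, 0 of 74 reached an adjusted p under 0.05 in edgeR and 0 in limma-voom. In edgeR only 13 of all 13572 genes (0.0958%) did, so 0 of 74 does not set the enzymes apart. The smallest adjusted p of an enzyme was 0.109 for Kdm4a. At an unadjusted p under 0.05, 4 enzymes were higher in Nr2e3-/- tumors (5.41%, against 11.8% of all genes) and 10 were lower (13.5%, against 9.72%). Counting instead the enzymes whose 3 Nr2e3-/- values all lay on one side of the 3 WT values, 6 were higher (8.11%, against 13.9% of all genes) and 13 were lower (17.6%, against 12.9%). DESeq2 called 7 of 74 at an adjusted p under 0.05 (9.46%, against 8% of all genes), with Kdm4a, Kdm5c and Smyd5 higher and Kat2b, Hdac11, Hdac8 and Kdm6b lower. That number was between 0 (without Nr2e3-/- replicate 3 or WT replicate 3) and 2 when any of the other 5 libraries was left out, and 18 without Nr2e3-/- replicate 1, where 25.3% of all genes were called. In edgeR, the number lower at an unadjusted p under 0.05 was 5 or 6 without WT replicate 3, WT replicate 1 or Nr2e3-/- replicate 3, while without Nr2e3-/- replicate 1 it was 13 (against 17.8% of all genes) and the number higher was 16 (against 19.9%).

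The median log2 fold change of the 74 was -0.05, with 33 above and 41 below 0, and that of all genes tested was 0.01. The differences ran from -0.95 for Hdac9 to 0.86 for Dnmt1, and 0 of 74 exceeded 2-fold, whereas 6.54% of all genes did. Their summed level was 1786, 1782 and 1876 CPM in WT replicates 1, 2 and 3 and 1707, 1914 and 1821 CPM in Nr2e3-/- replicates 1, 2 and 3. These sums overlapped, so the summed level of all 74 enzymes did not separate the genotypes.

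**Figure D1:**
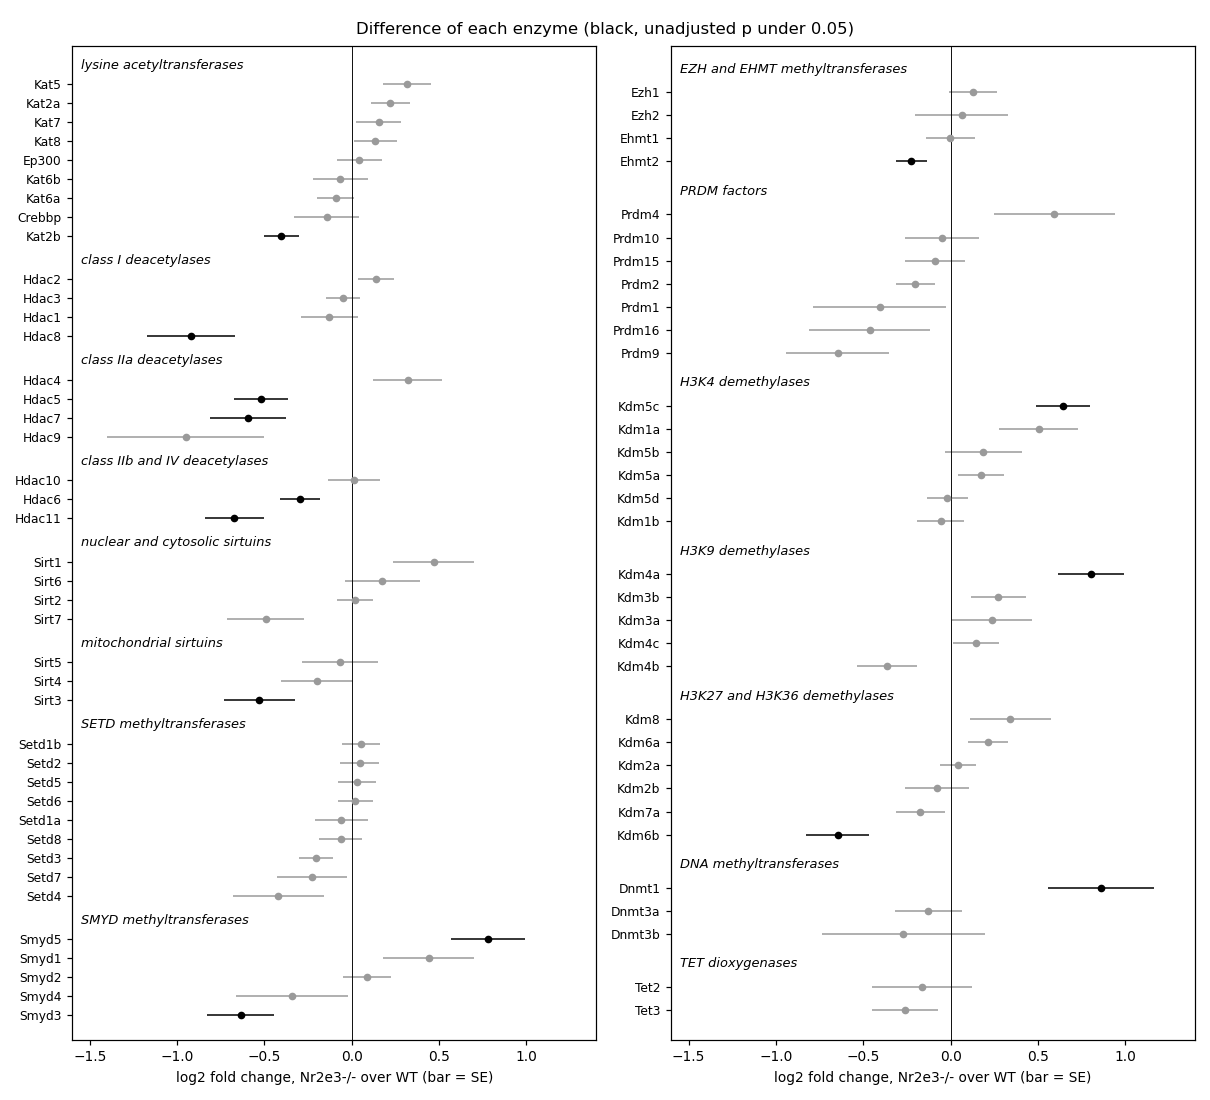
Log2 fold change of Nr2e3-/- over WT tumors (x axis) for each of the 74 enzymes, grouped by role, with bars of 1 SE. Black points had an unadjusted p under 0.05 in edgeR; they comprise 5 HDACs on the lower side, and Dnmt1, Kdm4a, Smyd5 and Kdm5c on the higher side.

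Levels between enzymes were compared per kilobase of the longest coding transcript, as the mean of the 6 libraries. The median was 3.92 CPM per kb. Sirt3, the main deacetylase of the mitochondrial matrix, had the highest level (35.8 CPM per kb), followed by the acetyltransferase Kat2b (21.4), the tubulin deacetylase Sirt2 (21.0), the class IV deacetylase Hdac11 (17.7) and the H3K4 demethylase Kdm5c (16.9). The lowest were Prdm16, a regulator of brown fat (0.0792), and the class IIa deacetylase Hdac9 (0.131). The 3 DNA methyltransferases (0.232 to 3.32 CPM per kb) and the 2 TET enzymes (1.12 and 2.03) were below the median in level. Per length, 4 of the 5 most abundant enzymes (Sirt3, Kat2b, Hdac11 and Kdm5c) were also among the 14 of 74 with an unadjusted p under 0.05, and the exception was Sirt2. The 14 also included enzymes low in level per length, such as Hdac8, Hdac7 and Smyd3 at ranks 54, 56 and 70 of 74. Over all genes 11.8% were higher and 9.72% lower, and a link between level and difference was not tested. In Sirt3 and Hdac11, 29.5% and 22.8% of the 50-base stretches of the longest transcript occur in other genes, so these 2 levels are uncertain.

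**Figure D2:**
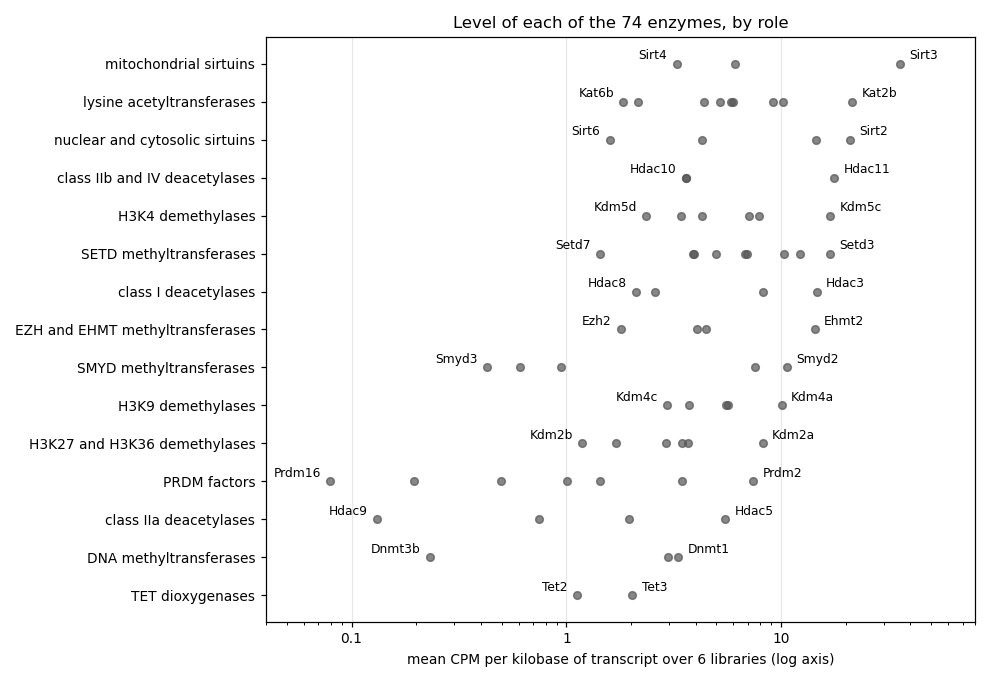
Mean level of each enzyme over the 6 libraries in CPM per kilobase of transcript (x axis, log scale), with 1 row per role and the lowest and highest member of each role named. Sirt3 lies highest at 35.8 and Prdm16 lowest at 0.0792 CPM per kb.

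The classical deacetylases were the family with the most lower members. Of the 11 HDAC genes, 5 were lower in Nr2e3-/- tumors at an unadjusted p under 0.05 (45.5%, against 9.72% of all genes) and 0 were higher (against 11.8%). The family's median log2 fold change was -0.30, against 0.01 over all genes. Under upper quartile normalization it was -0.38, against -0.08 over all genes. Without Nr2e3-/- replicate 1 the median was -0.30, with 5 HDACs lower and 1 higher (against 17.8% and 19.9% of all genes in that fit). Summed over the family, the level was 198, 194 and 200 CPM in the WT libraries and 175, 160 and 143 CPM in the Nr2e3-/- libraries. The groups did not overlap (197 ± 2.87 against 159 ± 15.8 CPM, mean ± SD, n = 3 each). Hdac11 and Hdac5 made up 81.2% of this difference in the summed level, and without them the sums were 106 to 111 CPM in WT and 96.0 to 104 CPM in Nr2e3-/- libraries.

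Hdac11, the sole class IV enzyme, which removes long fatty acyl groups as well as acetyl groups, lies on chromosome 6 (91156670 to 91174692, plus strand; RefSeq coordinates on GRCm38, the build also called mm10). Its level was 57.1, 55.3 and 60.5 CPM in the WT libraries and 45.8, 33.6 and 29.3 CPM in the Nr2e3-/- libraries. All Nr2e3-/- values lay below all WT values, with replicate 1 nearest to WT. The log2 fold change was -0.67 ± 0.17 (SE; adjusted p = 0.117 by edgeR, 0.0172 by DESeq2). Of its exonic bases, 26.0% overlap annotated transcripts of the opposite strand, and whether counting used strand is not stated.

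Hdac8, a class I enzyme that deacetylates the cohesin subunit Smc3 (chromosome X, 102284638 to 102505381, minus strand), was a low transcript with 5.68, 5.24 and 5.06 CPM in WT and 3.91, 2.45 and 2.16 CPM in Nr2e3-/- libraries. Again the groups did not overlap. Its log2 fold change of -0.92 ± 0.25 was the second lowest of the 74 after Hdac9 (adjusted p = 0.130 by edgeR, 0.0236 by DESeq2). The other class I enzymes, which form the catalytic core of the Sin3, NuRD, CoREST and NCoR complexes, gave smaller values: -0.13 for Hdac1, 0.14 for Hdac2 and -0.05 for Hdac3, with adjusted p-values of 0.448 or more in edgeR. Hdac3, the catalytic subunit of the NCoR complex and the most abundant class I enzyme per length, had 30.6, 30.8 and 29.2 CPM in WT and 28.9, 30.6 and 27.9 CPM in Nr2e3-/- libraries. For Hdac1, 58.7% of the 50-base stretches of its longest transcript also occur in transcripts of other genes, most of them in the predicted gene Gm10093, so its count is uncertain.

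Class IIa enzymes shuttle between cytoplasm and nucleus and repress Mef2 targets, with little deacetylase activity of their own. Hdac5 (chromosome 11, 102195747 to 102230172, minus strand) had 29.4, 31.5 and 33.4 CPM in WT and 26.2, 21.8 and 17.8 CPM in Nr2e3-/- libraries (log2 fold change -0.52 ± 0.16, adjusted p = 0.141 by edgeR). Hdac7, known for its role in endothelial cells (chromosome 15, 97792661 to 97844502, minus strand), had 10.6, 9.85 and 9.29 CPM against 8.47, 6.50 and 4.76 CPM (-0.60 ± 0.22, adjusted p = 0.185). In both genes every Nr2e3-/- library lay below every WT library. Hdac9 had the lowest log2 fold change of all 74 at -0.95 ± 0.45, from 1.08 to 1.595 CPM in WT and 0.325 to 1.151 CPM in Nr2e3-/- libraries, and at this depth the groups overlapped (adjusted p = 0.266). Hdac4 was on the other side of 0 (0.32 ± 0.20, adjusted p = 0.373), with 5.07 to 5.76 CPM in WT and 5.16 to 8.02 CPM in Nr2e3-/- libraries.

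Hdac6, a cytosolic deacetylase of tubulin (chromosome X, 7930116 to 7948047, minus strand), differed less in size but was even within the groups, with 17.1, 15.1 and 17.1 CPM in WT and 13.7, 13.3 and 13.2 CPM in Nr2e3-/- libraries (-0.30 ± 0.11, adjusted p = 0.198). Hdac10, a polyamine deacetylase, gave a log2 fold change of 0.01 (8.41 to 8.80 CPM in WT, 7.91 to 10.1 CPM in Nr2e3-/- libraries). The 5 lower HDACs thus came from each class: Hdac8 from class I, Hdac5 and Hdac7 from IIa, Hdac6 from IIb and Hdac11 from IV.

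**Figure D3:**
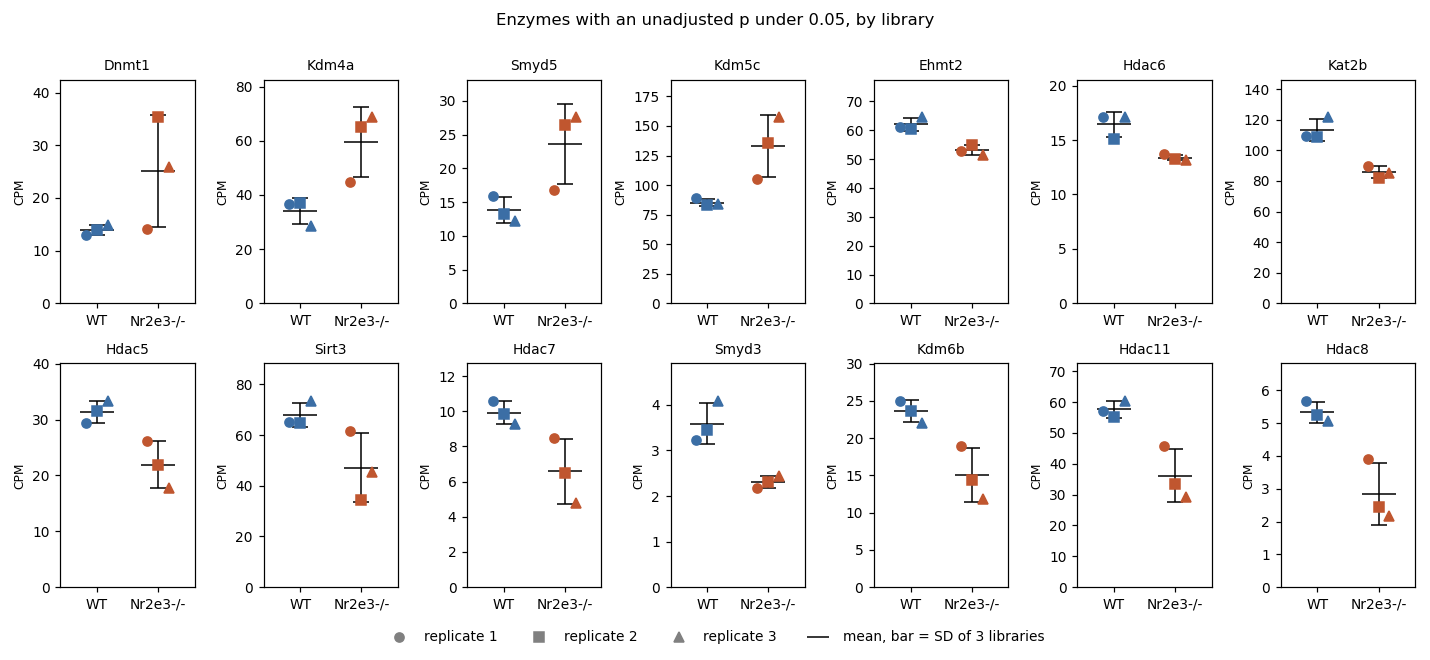
CPM (y axis, starting at 0) in the 3 WT and 3 Nr2e3-/- libraries for the 14 enzymes with an unadjusted p under 0.05, ordered by log2 fold change, with group means and SD bars. The groups overlap in Dnmt1, where Nr2e3-/- replicate 1 at 14.1 CPM lies within the WT range, and not in the other 13.

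Among the NAD-dependent sirtuins, 1 of 7 passed an unadjusted p under 0.05 and it was lower (14.3%, against 9.72% of all genes). Sirt3 (chromosome 7, 140863663 to 140882309, minus strand) had 65.3, 64.9 and 73.6 CPM in WT and 61.4, 34.4 and 45.5 CPM in Nr2e3-/- libraries. The groups did not overlap, but replicate 1 was only just below the lowest WT value, and the log2 fold change was -0.53 ± 0.20 (adjusted p = 0.200). Of the 50-base stretches of its longest transcript, 29.5% occur in transcripts of the neighbours Ric8a and Psmd13, which lie on the opposite strand. Psmd13, a proteasome subunit, had 63.2 to 70.1 CPM in WT and 69.3 to 80.7 CPM in Nr2e3-/- libraries. The other mitochondrial sirtuins were less expressed and gave -0.20 for Sirt4 and -0.07 for Sirt5. Together the 3 mitochondrial sirtuins summed to 82.6, 82.4 and 91.0 CPM in WT and to 82.9, 48.6 and 58.5 CPM in Nr2e3-/- libraries, so that the sum was lower in replicates 2 and 3 only.

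Sirt7, a nucleolar sirtuin, showed the same order of libraries, with 29.5, 29.2 and 29.6 CPM in WT and 28.0, 14.7 and 20.3 CPM in Nr2e3-/- libraries (-0.49 ± 0.22, adjusted p = 0.248). Sirt1, which deacetylates p53 and many metabolic regulators, was on the opposite side with 13.8 to 18.9 CPM in WT and 15.2, 23.2 and 27.6 CPM in Nr2e3-/- libraries (0.47 ± 0.23, adjusted p = 0.286). Sirt2, the most abundant sirtuin of nucleus and cytosol per length, gave 42.4 to 45.1 CPM and 40.4 to 47.8 CPM (0.02 ± 0.10). Its sign turned under upper quartile normalization (-0.07).

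The acetyltransferases held 1 enzyme with an unadjusted p under 0.05 among 9, and it was lower (11.1%, against 9.72% of all genes). Kat2b, also known as PCAF, which acetylates H3K9 within the SAGA and ATAC coactivator complexes (chromosome 17, 53566774 to 53672721, plus strand), was the highest acetyltransferase per length and had 110, 109 and 122 CPM in WT and 89.8, 82.2 and 85.4 CPM in Nr2e3-/- libraries. Here Nr2e3-/- replicate 1 lay with its group, and the log2 fold change was -0.40 ± 0.10 (adjusted p = 0.116 by edgeR, 0.0205 by DESeq2). Its paralog Kat2a (GCN5), which takes the same place in these complexes, was at 15.8 to 17.8 CPM in WT and 18.6 to 20.9 CPM in Nr2e3-/- libraries (0.22 ± 0.11, adjusted p = 0.290). The ratio of Kat2a to Kat2b CPM was 0.163, 0.154 and 0.130 in WT and 0.207, 0.254 and 0.225 in Nr2e3-/- libraries. As both genes had separate groups in opposite directions, the ratio could not overlap and adds no further evidence.

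Ep300 and Crebbp, the paired coactivators that acetylate H3K27 at enhancers, gave 0.04 ± 0.13 and -0.14 ± 0.19. Ep300 ranged from 46.1 to 50.9 CPM in WT and from 43.3 to 58.1 CPM in Nr2e3-/- libraries, and its sign turned under upper quartile normalization (-0.05). Kat5, the catalytic subunit of the Tip60 complex, was higher in all Nr2e3-/- libraries (12.5 to 15.6 CPM against 10.2 to 12.2 CPM in WT) with adjusted p = 0.242, and 17.9% of its 50-base stretches are shared with the neighbour Rnaseh2c. The MYST enzymes Kat6a, Kat6b, Kat7 and Kat8 lay between -0.09 and 0.16. As a family the acetyltransferases had a median of 0.04, against 0.01 over all genes. Under upper quartile normalization it was -0.05, against -0.08 over all genes.

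Of the 17 Kdm demethylase genes, 2 were higher in Nr2e3-/- tumors at an unadjusted p under 0.05 (11.8%, against 11.8% of all genes) and 1 was lower (5.88%, against 9.72%). The median log2 fold change was 0.17, against 0.01 over all genes, with 11 above 0. Under upper quartile normalization it was 0.08, against -0.08 over all genes. Without Nr2e3-/- replicate 1 the median was 0.28, with 8 higher and 2 lower (against 19.9% and 17.8% of all genes in that fit). Their summed level was 514, 512 and 517 CPM in the WT libraries and 532, 655 and 626 CPM in the Nr2e3-/- libraries, without overlap. Kdm5c and Kdm4a made up 81.7% of the difference, and without them the sums overlapped (389 to 405 CPM in WT, 382 to 454 CPM in Nr2e3-/- libraries).

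Kdm5c, an X-linked eraser of H3K4 methylation at promoters and enhancers (chromosome X, 152233198 to 152279102, plus strand), had 88.9, 83.0 and 83.9 CPM in WT and 106, 136 and 158 CPM in Nr2e3-/- libraries. WT values were within a narrow band and all Nr2e3-/- values were above it (0.64 ± 0.15, adjusted p = 0.111 by edgeR, 0.0107 by DESeq2). Its Y-linked paralog Kdm5d, which shares none of the 50-base stretches of its longest transcript with transcripts of Kdm5c (0 of 7925), had 17.8 to 19.6 CPM in WT and 17.3 to 20.7 CPM in Nr2e3-/- libraries (-0.02 ± 0.12). The ratio of Kdm5c to Kdm5d CPM was 4.53, 4.28 and 4.73 in WT and 5.09, 7.83 and 8.73 in Nr2e3-/- libraries. The autosomal paralogs Kdm5a and Kdm5b gave 0.17 ± 0.13 and 0.19 ± 0.22, with overlapping groups. Kdm1a (LSD1), the flavin-dependent H3K4 demethylase of the CoREST complex, had 15.7 to 20.5 CPM in WT and 18.1, 33.5 and 24.1 CPM in Nr2e3-/- libraries (0.50 ± 0.23, adjusted p = 0.253), and its relative Kdm1b gave -0.06.

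Kdm4a, which erases trimethylation of H3K9 and H3K36 (chromosome 4, 118136957 to 118180090, minus strand), had 36.5, 37.2 and 28.7 CPM in WT and 45.0, 65.0 and 68.8 CPM in Nr2e3-/- libraries. It had the smallest p-value of the 74 (0.80 ± 0.19, adjusted p = 0.109 by edgeR, 0.00594 by DESeq2), and the groups did not overlap. Its paralog Kdm4b, with the same substrate, was on the opposite side, at 18.6 to 19.8 CPM in WT and 18.9, 12.7 and 13.2 CPM in Nr2e3-/- libraries (-0.36 ± 0.17, adjusted p = 0.265). Kdm4c lay at 0.15 ± 0.13, and the H3K9 demethylases Kdm3a and Kdm3b at 0.24 ± 0.23 and 0.27 ± 0.16.

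Kdm6b (JMJD3), an inducible eraser of H3K27 methylation (chromosome 11, 69398508 to 69420367, minus strand), was the lower demethylase. It had 25.04, 23.7 and 22.1 CPM in WT and 19, 14.4 and 11.9 CPM in Nr2e3-/- libraries, without overlap (-0.65 ± 0.18, adjusted p = 0.130 by edgeR, 0.0334 by DESeq2). Kdm6a (UTX), the X-linked enzyme for the same mark that works within the MLL3 and MLL4 complexes, had 21.3, 19.3 and 20.1 CPM in WT and 21.3, 25.4 and 23.6 CPM in Nr2e3-/- libraries (0.22 ± 0.11, adjusted p = 0.310). The ratio of Kdm6a to Kdm6b CPM was 0.851, 0.814 and 0.911 in WT and 1.12, 1.77 and 1.99 in Nr2e3-/- libraries. Its lack of overlap follows from the separate groups of both genes, in opposite directions, and adds no further evidence. Kdm2a, the most abundant of the H3K27 and H3K36 demethylases per length, was at 67.5 to 71.0 CPM in WT and 66.1 to 78.4 CPM in Nr2e3-/- libraries, and its log2 fold change of 0.04 turned to -0.05 under upper quartile normalization.

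**Figure D4:**
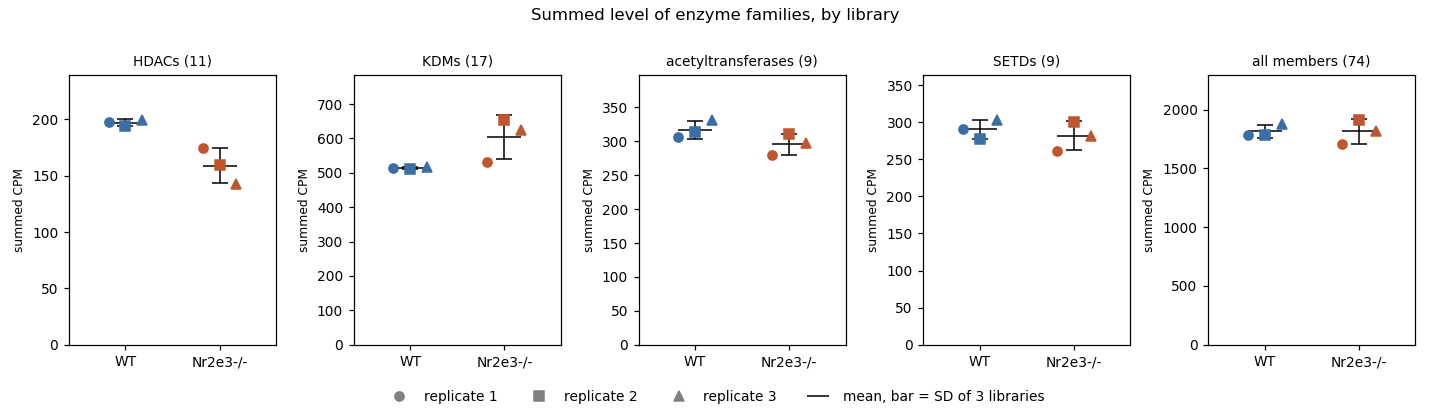
Summed CPM (y axis, starting at 0) of the HDACs, the Kdm demethylases, the acetyltransferases, the Setd methyltransferases and all 74 enzymes in each library, with group means and SD bars. The HDAC sums are lower in Nr2e3-/- tumors (143 to 175 against 194 to 200 CPM) and the Kdm sums higher (532 to 655 against 512 to 517 CPM), while the other 3 sums overlap.

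Among the histone methyltransferases, 0 of the 9 Setd genes passed an unadjusted p under 0.05 in edgeR (against 11.8% of all genes higher and 9.72% lower). By DESeq2, 0 had an adjusted p under 0.05 (against 8% of all genes). Their log2 fold changes in edgeR lay between -0.42 and 0.05. Setd2, which places H3K36 trimethylation on transcribed genes, gave 54.1 to 57.6 CPM in WT and 49.98 to 62.2 CPM in Nr2e3-/- libraries. Setd3, an actin histidine methyltransferase despite its name and the highest Setd gene per length, was lower in all Nr2e3-/- libraries (40.1 to 45.0 against 47.9 to 52.4 CPM; -0.21 ± 0.10, adjusted p = 0.272), and 37.6% of its 50-base stretches occur in transcripts of other genes.

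In the Smyd family, 2 of 5 enzymes had an unadjusted p under 0.05, in opposite directions. That was 20% higher (against 11.8% of all genes) and 20% lower (against 9.72%). Smyd5 (chromosome 6, 85431976 to 85446429, plus strand) had 15.9, 13.2 and 12.2 CPM in WT and 16.8, 26.5 and 27.6 CPM in Nr2e3-/- libraries. Replicate 1 was only just above the highest WT value (0.78 ± 0.21, adjusted p = 0.128 by edgeR, 0.0216 by DESeq2). Smyd3, a methyltransferase with cytoplasmic as well as histone substrates (chromosome 1, 178951960 to 179518053, minus strand), had 3.23, 3.45 and 4.09 CPM in WT and 2.19, 2.30 and 2.43 CPM in Nr2e3-/- libraries. All 3 Nr2e3-/- libraries were close together below WT (-0.64 ± 0.19, adjusted p = 0.145). Smyd2, the highest of the family per length, gave 0.09 ± 0.14, and its sign turned under upper quartile normalization (-0.0023).

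Ehmt2 (G9a), which dimethylates H3K9 in euchromatin (chromosome 17, 34898463 to 34914073, plus strand), was slightly lower, with 61.3, 60.4 and 64.6 CPM in WT and 52.9, 55.0 and 51.5 CPM in Nr2e3-/- libraries (-0.22 ± 0.09, adjusted p = 0.214). The spread within the groups was small and they did not overlap. Its partner Ehmt1 had the same mean in both groups (26.6 ± 3.13 and 26.6 ± 3.12 CPM, SD, n = 3 each). Ezh2, the Polycomb methyltransferase of H3K27 in dividing cells, had 4.76 to 5.14 CPM in WT and 3.44, 7.13 and 4.71 CPM in Nr2e3-/- libraries, and its sign turned under upper quartile normalization (0.06 against -0.03). Ezh1, the form prevalent in non-dividing cells, was at 14.9 to 18.7 CPM over all libraries (0.13 ± 0.14), and its mean level per length was above that of Ezh2 (4.04 against 1.80 CPM per kb).

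Of the 7 PRDM factors, which combine a SET-like domain with zinc fingers, 6 lay below 0. So did 41 of all 74 enzymes and 6682 of all 13572 genes. In edgeR 0 of the 7 had an unadjusted p under 0.05 (against 11.8% of all genes higher and 9.72% lower). Prdm2 (RIZ1) was the most abundant per length, with 53.4 to 64.2 CPM in WT and 48.6 to 53.4 CPM in Nr2e3-/- libraries (-0.20 ± 0.11, adjusted p = 0.318). Prdm4 was the exception in direction: Nr2e3-/- replicates 2 and 3 had 21.3 and 20.4 CPM against 10.45 to 11.3 CPM in WT, while replicate 1 was below WT at 7.68 CPM (0.59 ± 0.35, adjusted p = 0.350). Prdm9, a meiotic H3K4 methyltransferase, had 4.06 to 4.50 CPM in WT and 3.97, 2.45 and 1.79 CPM in Nr2e3-/- libraries (-0.65 ± 0.30, adjusted p = 0.255).

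Among the DNA methyltransferases, Dnmt1, which copies methylation to the new strand after replication (chromosome 9, 20907206 to 20959888, minus strand), had the highest log2 fold change of the 74. It had 12.98, 13.8 and 14.8 CPM in WT and 14.1, 35.4 and 25.9 CPM in Nr2e3-/- libraries. Replicate 1 was within the WT range and the others were well above it (0.86 ± 0.30, adjusted p = 0.175 by edgeR, 0.0671 by DESeq2). The de novo enzymes differed less: Dnmt3a was at 28.7 to 31.6 CPM in WT and 21.98, 36.1 and 24.1 CPM in Nr2e3-/- libraries (-0.13 ± 0.19), and Dnmt3b at 0.768 to 1.49 CPM and 0.397 to 1.41 CPM (-0.27 ± 0.47). The TET dioxygenases overlapped too, with Tet2 at 10.8 to 11.2 CPM in WT and 8.08, 14.5 and 6.49 CPM in Nr2e3-/- libraries (-0.16 ± 0.29) and Tet3 at 19.9 to 29.96 CPM and 16.7 to 22.2 CPM (-0.26 ± 0.19). Tet1 had 3 counts in each WT library and 0, 4 and 0 in the Nr2e3-/- libraries, where a difference was not detectable at this depth.

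Since Dnmt1 and Ezh2 are more abundant in dividing cells, the proliferation genes were set beside them. Of 11 tested, including Mki67, Top2a, Mcm6 and Pcna, 0 had an unadjusted p under 0.05 in edgeR. Over all genes, 11.8% were higher and 9.72% lower at that threshold. The sum of the 12 listed was 43.1 to 56.3 CPM in WT and 37.5, 80.3 and 38.7 CPM in Nr2e3-/- libraries. The sum was highest in Nr2e3-/- replicate 2, the library highest in Dnmt1 and Ezh2. In replicate 3 the sum was 38.7 CPM and Dnmt1 was at 25.9 CPM. The part of cell division in these levels was not tested.

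Markers of other cell types also varied among the libraries. Stromal genes (8, among them Col1a1, Dcn and Lrat) summed to 251 to 272 CPM in WT and 287, 170 and 162 CPM in Nr2e3-/- libraries, most of it Dcn and Col3a1. The sum was low in the replicates that were also lowest in Hdac5, Hdac7, Hdac11 and Kdm6b. The list was not uniform: 5 genes lay below 0 and 3 above, and 0 had an unadjusted p under 0.05 in edgeR. Pdgfrb was higher in all Nr2e3-/- libraries (9.68 to 12.3 against 9.43 to 9.61 CPM). Endothelial genes (7) summed to 290 to 304 CPM in WT and 251 to 301 CPM in Nr2e3-/- libraries, with 1 higher (Lyve1) and 1 lower (Kdr, log2 fold change -0.61) at an unadjusted p under 0.05. Immune genes (10 of 11 found) summed to 225 to 310 CPM in WT and 191, 418 and 241 CPM in Nr2e3-/- libraries, with 2 higher (Itgam and S100a8) and 2 lower (the B cell genes Cd79a and Ms4a1). Bile duct genes (6) summed to 57.3 to 119 CPM in WT and 69.1, 429 and 186 CPM in Nr2e3-/- libraries, most of it Spp1, and Spp1 and Epcam were higher at an unadjusted p under 0.05 among 5 tested. Epcam had 1.81, 2.37 and 2.08 CPM in WT and 1.79, 10.95 and 5.79 CPM in Nr2e3-/- libraries (log2 fold change 1.58), while the duct keratins Krt19 and Krt7 were at 0.520 to 1.79 CPM throughout. Of the 8 hepatocyte genes, Hnf4a and Tat were higher at an unadjusted p under 0.05. Among 7 liver tumor markers, Scd2 was lower at that threshold. Afp ran from 19.9 to 135 CPM in WT and from 21.5 to 30.1 CPM in Nr2e3-/- libraries. In the fit of all 6 libraries, 11.8% of all genes were higher and 9.72% lower at an unadjusted p under 0.05. Without Nr2e3-/- replicate 1, the numbers higher and lower at an unadjusted p under 0.05 were 1 and 0 for the proliferation genes, 0 and 4 for the stromal, 1 and 2 for the endothelial, 3 and 2 for the immune, 2 and 0 for the bile duct, 2 and 0 for the hepatocyte and 0 and 1 for the liver tumor genes. Over all genes in that fit, 19.9% were higher and 17.8% lower. The part of cell makeup in the values of the enzymes was not tested.

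Nr2e3-/- replicate 1 also stood apart from its group in many of the enzymes. In 12 of the 14 enzymes with an unadjusted p under 0.05 it was the Nr2e3-/- library nearest to the WT mean, and Smyd3 and Ehmt2 were the exceptions. The median coefficient of variation of the 74 enzymes was 6.56% in WT and 16.1% in Nr2e3-/- libraries, and it was larger in Nr2e3-/- for 56 of 74. These values were not taken over all genes, so they are not shown to be particular to the enzymes. Without that library, edgeR called 18 of 74 at an adjusted p under 0.05 (24.3%, against 21.8% of all genes), 8 higher and 10 lower. The higher ones were Dnmt1 (1.15), Kdm4a (0.98), Smyd5 (0.98), Prdm4 (0.94), Kdm5c (0.79), Kdm1a (0.70), Sirt1 (0.68) and Kdm3b (0.43). The lower ones were Hdac8 (-1.19), Prdm9 (-0.98), Hdac11 (-0.86), Kdm6b (-0.83), Hdac7 (-0.80), Sirt3 (-0.76), Sirt7 (-0.75), Hdac5 (-0.65), Kdm4b (-0.56) and Kat2b (-0.43), all log2 fold changes of replicates 2 and 3 over the 3 WT libraries. By family, at an unadjusted p under 0.05, the sirtuins then held 1 higher and 3 lower (median -0.33), the acetyltransferases 3 higher and 1 lower (median 0.08), and the Setd genes 0 in either direction (median 0.05). The Smyd and the PRDM genes each held 1 higher and 1 lower, the DNA methyltransferases 1 higher, and the Ezh, Ehmt and Tet genes 0. Over all genes in that fit, 19.9% were higher and 17.8% lower.

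The left-out library was then placed between WT and the other Nr2e3-/- libraries. The WT libraries it was placed against had also served to choose the genes, so the placement is not independent of that choice. Of the 29 enzymes with an unadjusted p under 0.05 in the fit without it, 16 were higher and 13 lower in replicates 2 and 3. Replicate 1 lay on the same side of the WT mean for 20 of the 29 (69.0%, against 69.2% of the 5220 genes so chosen among all). It lay beyond all 3 WT libraries for 11 of the 13 lower enzymes (84.6%, against 51% of all genes so chosen as lower) and for 6 of the 16 higher ones (37.5%, against 51.5%). Over the 29, its median position was 18.3% of the way from the WT mean to the mean of replicates 2 and 3, against 21.3% over all such genes. The higher enzymes that replicate 1 did not share included Dnmt1 and Kdm1a, at 2.16% and 4.45% of the way, and Prdm4, Kdm3b and Sirt1, for which it lay on the other side of the WT mean.

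**Figure D5:**
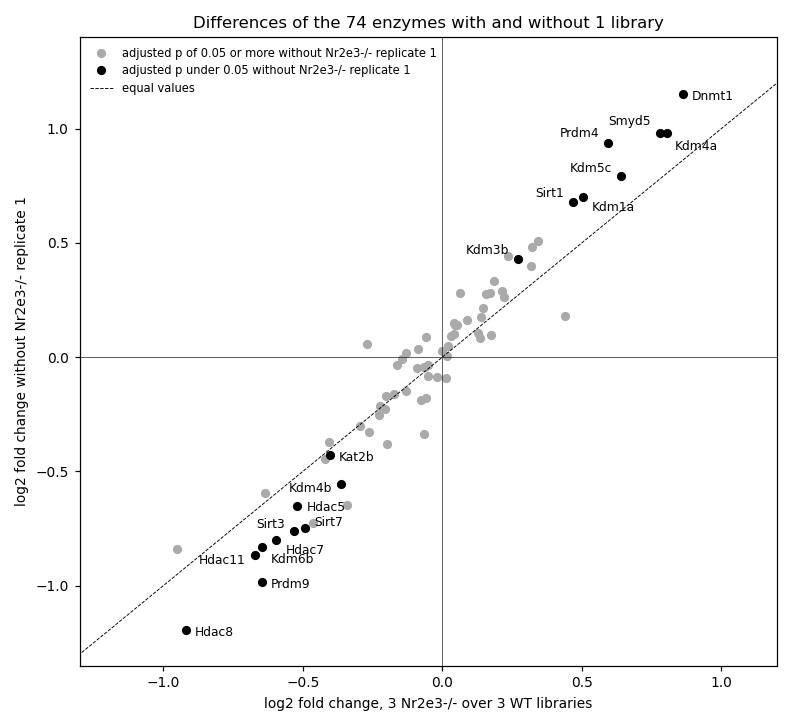
Log2 fold change of Nr2e3-/- over WT for the 74 enzymes from all 6 libraries (x axis) and without Nr2e3-/- replicate 1 (y axis), with a dashed line of equal values. Black points are the 18 enzymes with an adjusted p under 0.05 without that library; they lie farther from 0 on the y axis than on the x axis, as for Dnmt1 (0.86 and 1.15) and Hdac8 (-0.92 and -1.19).

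The subunits, readers and cofactor enzymes that work with these 74 were counted by lists of such genes. Of 98 listed genes, 92 were tested, and 14 were higher (15.2%, against 11.8% of all genes) and 7 lower (7.61%, against 9.72%) at an unadjusted p under 0.05. At an adjusted p under 0.05 there were 0 in edgeR and 9 by DESeq2 (9.78%, against 8% of all genes). Without Nr2e3-/- replicate 1, 31 were higher and 9 lower, and 23 had an adjusted p under 0.05 in edgeR. Over all genes in that fit, 19.9% were higher, 17.8% were lower and 21.8% had an adjusted p under 0.05. Of 18 histone methyltransferases outside the families above, 6 were higher (33.3%, against 11.8% of all genes) and 0 lower (against 9.72%), with a median of 0.26. Without Nr2e3-/- replicate 1 these numbers were 11 (against 19.9% of all genes) and 0 (against 17.8%), with a median of 0.33. Prmt5, which dimethylates histone arginines symmetrically, had 14.2 to 17.4 CPM in WT and 19.7 to 24.7 CPM in Nr2e3-/- libraries (0.49 ± 0.14, adjusted p = 0.133). Whsc1 (Nsd2), an H3K36 dimethyltransferase, had 25.04 to 28.8 CPM and 34.0 to 37.8 CPM (0.38 ± 0.11, adjusted p = 0.134). Prmt7, a monomethylating arginine enzyme, gave 0.47 ± 0.13 (adjusted p = 0.135). In each of these genes all Nr2e3-/- values lay above all WT values.

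Among the readers and repair factors of 5-methylcytosine, 3 of 9 were higher (33.3%, against 11.8% of all genes) and 1 was lower (11.1%, against 9.72%). The list's median was 0.51. Without Nr2e3-/- replicate 1, 5 were higher and 1 lower (against 19.9% and 17.8% of all genes), with a median of 0.73. Mbd1, a methyl-CpG binding repressor, had 112, 57.5 and 101 CPM in WT and 151, 170 and 228 CPM in Nr2e3-/- libraries (1.02 ± 0.27, adjusted p = 0.127). Of the 14 Polycomb subunits, 0 were higher (against 11.8% of all genes) and 2 were lower (14.3%, against 9.72%). Without that library 2 were higher and 2 lower. Cbx7, a PRC1 reader of H3K27 methylation, had 6.76, 8.22 and 11.1 CPM in WT and 4.77, 2.93 and 4.71 CPM in Nr2e3-/- libraries (-1.09 ± 0.27, adjusted p = 0.116), and Phf1, a partner of PRC2, had 16.1 to 19.7 CPM and 11.5 to 12.98 CPM (-0.59 ± 0.13, adjusted p = 0.1002). In both, the Nr2e3-/- libraries lay below all WT libraries.

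Of the 10 COMPASS and MLL genes, 1 was higher (10%, against 11.8% of all genes), the scaffold Wdr5 (0.35 ± 0.11, adjusted p = 0.158). Without Nr2e3-/- replicate 1, 2 were higher and 1 lower (against 19.9% and 17.8% of all genes). Among 19 corepressor and NuRD subunits tested, 2 were higher (10.5%, against 11.8% of all genes), Tbl1xr1 (0.39) and Rcor1 (0.34), and Mta3 was lower (-0.54 ± 0.15, adjusted p = 0.132). Without that library 7 were higher and 1 lower, and 4 of the list had an adjusted p under 0.05 (against 21.8% of all genes). Of 10 other acetyltransferases and coactivators, 0 were higher and 2 lower (20%, against 9.72% of all genes), and 2 and 1 without that library. The nuclear receptor coactivator Ncoa1, 1 of the lower ones, had 26.2 to 29.4 CPM in WT and 18.7 to 20.1 CPM in Nr2e3-/- libraries (-0.50 ± 0.10, adjusted p = 0.0984). Among 12 enzymes of cofactor supply, 2 were higher (16.7%, against 11.8% of all genes) and 1 was lower (8.33%, against 9.72%). Without that library these numbers were 2 and 3. Nnmt, which consumes S-adenosylmethionine to methylate nicotinamide, was among the higher ones and had 69.1, 50.04 and 62.0 CPM in WT and 135, 127 and 173 CPM in Nr2e3-/- libraries. All 3 Nr2e3-/- values, replicate 1 included, were far above WT (1.26 ± 0.17, adjusted p = 0.0757 by edgeR, 1.23e-07 by DESeq2). Idh2, the mitochondrial source of 2-oxoglutarate and NADPH, was lower (96.7 to 110 against 68.7 to 86.1 CPM; -0.48 ± 0.13, adjusted p = 0.124).

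The promoters of the leading enzymes were read from RefSeq (GRCm38.p6), which gave a window from 250 bases before to 50 bases after the start for 62 of the 74. The GC box GGGCGG, bound by Sp1 and related factors and typical of housekeeping promoters, was present on either strand in 69.4% of these 62 and in 66.1% of all genes tested with a window, and in 35.7% of all 32851 windows. The CCAAT box was present in 51.6% of the 62 against 42.7% of genes tested, the E-box CACGTG in 14.5% against 11.6%, the Tcf-like CTTTGA in 9.68% against 14.7%, and the nuclear receptor element AAGTCA in 17.7% against 13.7%. Each motif was counted on both strands and apart from the others, so that CCAAT and the complement of a GC box can share bases. The bases before the first annotated exon are shown for 3 higher and 2 lower enzymes with a window, to let their make-up be compared, with GGGCGG or its complement CCGCCC in capitals.
Kdm4a promoter, chr4:118180091-118180293, minus strand: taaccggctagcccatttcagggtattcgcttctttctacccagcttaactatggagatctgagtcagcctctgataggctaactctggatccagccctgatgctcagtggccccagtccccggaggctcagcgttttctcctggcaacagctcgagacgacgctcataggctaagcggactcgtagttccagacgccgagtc
Kdm5c promoter, chrX:152232977-152233197, plus strand: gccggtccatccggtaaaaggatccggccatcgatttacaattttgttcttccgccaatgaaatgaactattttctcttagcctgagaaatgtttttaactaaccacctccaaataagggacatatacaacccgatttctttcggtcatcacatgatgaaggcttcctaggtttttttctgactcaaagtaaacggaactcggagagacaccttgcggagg
Hdac11 promoter, chr6:91156565-91156669, plus strand: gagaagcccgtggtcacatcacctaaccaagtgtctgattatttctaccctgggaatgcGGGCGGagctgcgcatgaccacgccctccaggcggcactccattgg
Smyd5 promoter, chr6:85431726-85431975, plus strand: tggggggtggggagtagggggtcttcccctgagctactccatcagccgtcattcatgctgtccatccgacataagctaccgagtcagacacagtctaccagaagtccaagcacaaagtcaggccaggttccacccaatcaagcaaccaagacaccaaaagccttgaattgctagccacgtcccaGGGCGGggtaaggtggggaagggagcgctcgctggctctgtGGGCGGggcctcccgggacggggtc
Hdac5 promoter, chr11:102230173-102230422, minus strand: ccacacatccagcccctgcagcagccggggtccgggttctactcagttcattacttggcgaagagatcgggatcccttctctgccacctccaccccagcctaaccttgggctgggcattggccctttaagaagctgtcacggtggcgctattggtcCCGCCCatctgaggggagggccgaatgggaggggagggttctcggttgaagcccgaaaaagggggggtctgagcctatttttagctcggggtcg

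The Kdm4a and Kdm5c stretches held no GC box, the Hdac11 and Hdac5 stretches held 1 each and that of Smyd5 held 2. The GC content was 43.0% for Kdm5c, 55.7% for Kdm4a, 59.0% for Hdac11, 60.4% for Smyd5 and 60.8% for Hdac5. Among the 4 higher enzymes 2 had a GC box in a window, and among the 8 lower enzymes with a window 6 did.

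Transcript length was set beside the differences because the enzymes are long. Their median transcript had 4615 bases against 3063 over all genes tested, and 32 of the 74 fell in the longest of 5 equal length classes of genes, whose median log2 fold change was -0.05, against 0.04 in the shortest class.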

How the data were processed

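The authors made TruSeq libraries from liver tumor RNA, aligned single-end reads to mm10 (GRCm38) with TopHat and counted them per gene with featureCounts, and the deposited values used here are raw counts. The strand setting and annotation are not given in the sources used here. Sharing with other genes was read from 50-base stretches of GENCODE transcripts. The authors' normalized table and their comparison table were not used. Dose, age and time of sampling come from the study's methods. Counts were filtered with filterByExpr (minimum count 10, total 15), normalized by TMM and tested with edgeR 4.0.16 (quasi-likelihood F test, two-sided, genotype as the sole term, R 4.3.3), and the Benjamini-Hochberg adjustment covered all 13572 genes. The SE was the log2 fold change divided by the root of F. An exact permutation test of 3 against 3 libraries cannot go below p = 0.1 and was not used. Alternatives were RLE and upper quartile normalization, DESeq2 1.42.0, limma-voom (limma 3.58.1), 2 other filters, the replicate number as a block, a floor of 50 counts for the enzymes and leaving out each library. DESeq2 without each library was added after the data had been seen. The pipeline was tested on simulated data. The enzymes, lists and alternatives were chosen with earlier results of these data known. Named were enzymes with p under 0.05 and groups without overlap, the most abundant per length of each role and a list of well-known enzymes, and further enzymes named for contrast were chosen after their values were seen. The depth of 15376261 to 28690279 counts limits the enzymes near 1 CPM, and 3 counts were taken as the limit that a count of 0 allows, covering counting error only.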

Additional observations from a re-analysis of the deposited data

How the results depend on the processing

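Of 441 values of 34 named enzymes under the alternatives, 399 kept their direction and their side of the threshold, 20 crossed to an adjusted p under 0.05 (7 by DESeq2 and 13 without Nr2e3-/- replicate 1) and 22 changed sign, in 9 enzymes. No value of the 13 enzymes with p under 0.05 and separate groups changed sign. For the fits without 1 library, their choice by separate groups had all but fixed this. Enzymes at an adjusted p under 0.05 numbered 0 in edgeR, 7 by DESeq2, and 0 to 18 when 1 library was left out. Those called by DESeq2 numbered 0 to 18 without 1 library. Enzymes higher at p under 0.05 numbered 4 (3 to 16 without 1 library) and those lower 10 (5 to 13). The median log2 fold change of -0.05 was -0.14 under upper quartile normalization, which moved the median of all genes from 0.01 to -0.08. Sign changes under upper quartile normalization were Kdm2a -0.0463, Sirt2 -0.0677, Smyd2 -0.0023, Ep300 -0.0470 and Ezh2 -0.031. Sirt2 was -1.8e-06 with at least 10 counts in every library, and Ehmt1 was 0.0019 with RLE, 0.0087 with DESeq2 and 0.0050 without the filter. Without 1 library, log2 fold changes ran from -0.0300 to 0.102 for Kdm2a, -0.0306 to 0.0876 for Sirt2, -0.0043 to 0.16 for Smyd2, -0.0679 to 0.15 for Ep300, -0.26 to 0.28 for Ezh2, -0.10 to 0.10 for Ehmt1, -0.38 to 0.0162 for Dnmt3a, -0.79 to 0.0562 for Dnmt3b and -0.59 to 0.0609 for Tet2. The cause was not tested. With the replicate number as a block, 0 enzymes reached an adjusted p under 0.05 and 5 were higher and 9 lower at p under 0.05. The deviations of same-numbered samples from their group means correlated at -0.08, 0.22 and 0.02, so the numbers were not taken to pair the samples. Depth limits Dnmt3b, Hdac9, Prdm1 and Prdm16, all near or below 1 CPM in most libraries.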
